A study of Mus musculus with 7 samples.

Results

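The genes described are 40 interferon-stimulated genes, a named list of genes that interferon switches on together with the transcription factors that do so. They were picked by symbol from the 24341 genes of the table, and all 40 were listed there. B-cell precursor (BCP) cells were sorted from the spleen of Eμ-Ret mice, and their mRNA was sequenced with a stranded kit. The 3 leukemic samples came from older, moribund mice with overt disease and the 4 preleukemic samples from young, healthy mice, each sample being a mouse of its own. Mice of both groups were Emu-Ret hemizygotes on a BALB/c background, so that leukemic and preleukemic cells alike carried the oncogenic Ret fusion gene driven by the IgH enhancer, and the labels list no treatment. The comparison therefore addresses the step from preleukemia to leukemia, and age and disease state changed together. BCP cells were sorted as BP-1+ cells, and the stated sort purity refers to preleukemic cells. For its in vitro studies the paper used leukemic spleen cells without enrichment in most cases. Its RNA sequencing methods do not say how leukemic cells were purified.

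Interferons are secreted proteins that cells release on sensing viral or other foreign nucleic acid. Type I interferon binds the receptor chains IFNAR1 and IFNAR2, JAK1 and TYK2 phosphorylate STAT proteins such as STAT2, and these join IRF9 to bind interferon-stimulated response elements (ISRE) in promoters. Type II interferon, or IFN-γ, acts through a different receptor and through gamma-activated sites (GAS), and many guanylate-binding proteins and immunity-related GTPases respond strongly to it. The induced proteins sense RNA, degrade or modify it, block viral entry or attack vacuoles that hold pathogens.

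Of the 40 genes, 38 reached an FPKM sum of 10 over the 7 samples and were tested with limma on log2(FPKM + 1). FPKM is the number of fragments per kilobase of transcript, scaled to depth, and a gene was called at a limma p under 0.05 after adjustment by the method of Benjamini and Hochberg over all 10541 genes tested. In the leukemic samples 9 of the 38 genes were higher (23.7%) and 0 were lower. Among all genes tested, 8.47% were called higher, 6.26% lower and 14.7% in either direction. The 9 were Rsad2, Ifitm3, Isg20, Isg15, Oas3, Irf7, Ifih1, Ifi44 and Eif2ak2. At an unadjusted limma p under 0.05 there were 16 of the 38, against 34.0% of all genes tested. The median log2 fold change of the 38 was 0.36, against -0.02 over all genes tested, and it lay above 0 for 26 of them. Rescaling FPKM to a common sum per sample shifted the median of all genes to -0.18 and left 21 genes above 0, since Adar, Irf9, Irgm1, Trim25 and Xaf1 changed sign. The same 9 genes were called higher on that scale, and Stat2 and Trim30a were called lower. Over all genes tested that rescaling turned a split of 893 higher and 660 lower calls into 686 and 2231, and quantile normalization turned it into 754 and 907.

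The number of these calls changed with the samples in the fit. Leaving out 1 sample at a time gave between 0 and 14 interferon-stimulated genes called higher. The count was 14 without leukemic replicate 1, 6 without leukemic replicate 2, 4 without leukemic replicate 3 and 5 without preleukemic replicate 1. It was 1 without preleukemic replicate 2 and 1 without preleukemic replicate 3, in both cases Ifitm3, and 0 without preleukemic replicate 4. Calls over all genes fell with them, from 893 higher to 107 without preleukemic replicate 4. Of the 3 genes Ifih1, Oas3 and Oas2, none would have reached the filter at its preleukemic mean, so that these genes were tested because of their leukemic values.

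**Figure D1:**
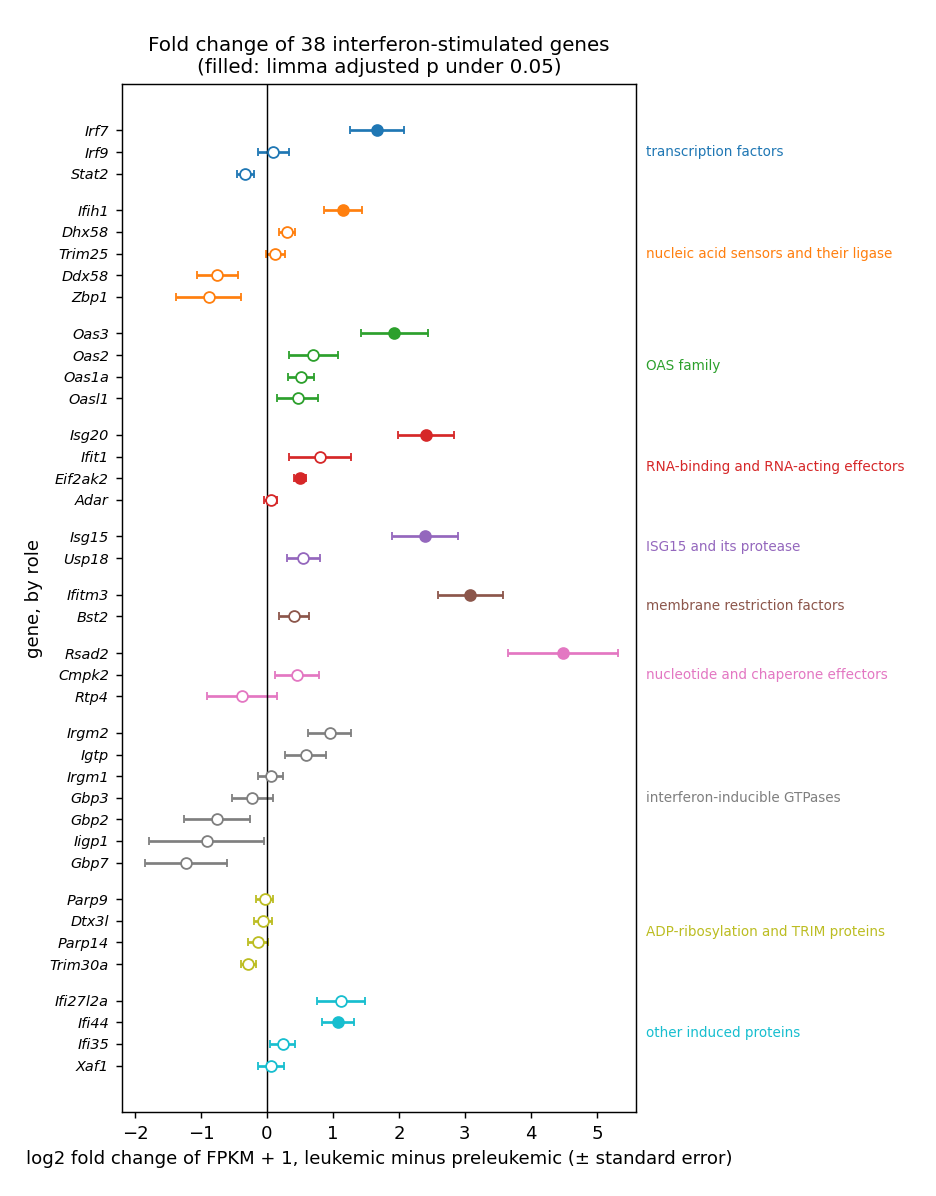
Log2 fold change of FPKM + 1, leukemic minus preleukemic, for the 38 interferon-stimulated genes tested (horizontal axis), grouped by role (vertical axis). Points are limma estimates, bars are standard errors and filled points are the 9 genes with an adjusted p under 0.05. Called genes stand in 8 of the 10 roles, and none among the GTPases or the ADP-ribosylation and TRIM proteins. Those 2 roles hold 7 and 4 genes, and 14.7% of all genes tested were called, so 0 calls do not set them apart.

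The samples were checked before single genes were compared. The 12 BCP markers, among them Enpep (the BP-1 antigen) and Vpreb1 (a surrogate light chain), were above the floor of the table in each sample, and their summed level was 3490 to 5260 FPKM in leukemic and 6430 to 8030 FPKM in preleukemic samples. Markers of other cells were present as well. The 8 red cell precursor markers summed to 3860, 19000 and 9230 FPKM in leukemic replicates 1 to 3, to 1820 FPKM in preleukemic replicate 1 and to 192, 192 and 221 FPKM in preleukemic replicates 2 to 4, and 8 of 8 were called higher. The 12 macrophage markers summed to 45.3, 234 and 91.9 FPKM in leukemic and to between 11.3 and 20.9 FPKM in preleukemic samples, with 6 of the 9 tested called higher, though Adgre1, one of the 6, and Spic were tested because of their leukemic values. The 9 neutrophil markers summed to between 1450 and 1800 FPKM in leukemic and between 152 and 883 FPKM in preleukemic samples, with 4 of 9 called higher. The 4 monocyte markers summed to 15.5, 25.0 and 27.2 FPKM in leukemic and to between 13.3 and 17.3 FPKM in preleukemic samples. Of the 3 tested, Ly6c2 and Ms4a6c were called higher and F13a1 lower, and Ms4a6c was tested because of its leukemic values. The 5 plasmacytoid dendritic cell markers summed to between 2.49 and 18.5 FPKM in leukemic and between 1.25 and 4.31 FPKM in preleukemic samples, and 3 of the 5, the defining marker Siglech among them, were under 1 FPKM in each of the 7. Pacsin1 made up 18.2 of the 18.5 FPKM in leukemic replicate 1. In bulk RNA, fewer cells of a type and less RNA per cell cannot be told apart. Implied depth ran from 13.52 to 16.12 M fragments, at which 1 FPKM of a transcript of 1500 effective bases is 20.3 fragments in the shallowest sample, a counting error of 22.2%, and 10 FPKM is 203 fragments, an error of 7.02%.

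Promoter sequence was searched for motifs of the kind through which interferon acts. The genes were listed as interferon-induced, so a share of matches above that of all genes may follow from the choice of genes. RefSeq promoter windows on GRCm38.p6, from 250 bases before to 50 bases after the start, were given for 31 of the 40 genes. Both strands were searched for an ISRE-type motif, the letters GAAA followed by any 2 bases and GAAA again, which 19 of the 31 genes held. It was present in 1131 of all 32851 windows (3.44%) and in 3.89% of the 8128 tested genes with a window. A match was found for 6 of the 9 genes called higher and for 13 of the 22 others with a window. The GAS-type motif, TTC followed by any 3 bases and GAA, was present for 10 of the 31 genes, 3 of the 9 called higher and 7 of the 22 others, against 8.3% of all windows. Such a match is a description of letters, not of a bound site. The 250 bases before the start are shown for Isg15, whose window holds 3 matches that overlap each other in 1 run, and for Rsad2, the gene with the largest fold change, with the matches in capitals. In Rsad2 the match is on the opposite strand and reads TTTCATTTTC.
Isg15, chr4:156200819-156201068, minus strand: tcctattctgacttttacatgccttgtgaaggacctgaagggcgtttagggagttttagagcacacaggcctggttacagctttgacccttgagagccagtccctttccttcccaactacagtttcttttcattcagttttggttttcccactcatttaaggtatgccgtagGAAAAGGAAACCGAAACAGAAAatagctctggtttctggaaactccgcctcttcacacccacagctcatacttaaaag
Rsad2, chr12:26456453-26456702, minus strand: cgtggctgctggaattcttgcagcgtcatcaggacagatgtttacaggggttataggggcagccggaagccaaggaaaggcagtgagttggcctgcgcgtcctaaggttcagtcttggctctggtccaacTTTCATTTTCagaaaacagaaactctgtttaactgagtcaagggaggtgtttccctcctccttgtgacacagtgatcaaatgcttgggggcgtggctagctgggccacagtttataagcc

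For the other 4 called genes that held a match, and for 3 genes that were not called (Ifit1, Gbp2 and Irgm2), the first match is shown in capitals with 8 bases on each side, on the strand that reads GAAA. The match of Ifitm3 lies just after the start, and a second one there overlaps a GAS-type match. These short windows show that the same arrangement of letters stands beside genes that were called and genes that were not.
Ifitm3, chr7:141010725-141010750, minus strand: aaattcagGAAAAGGAAActtctgag
Oas3, chr5:120777717-120777742, minus strand: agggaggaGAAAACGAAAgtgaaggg
Ifih1, chr2:62646206-62646231, minus strand: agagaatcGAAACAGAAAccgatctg
Eif2ak2, chr17:78882537-78882562, minus strand: tccgccggGAAAACGAAAcagaagag
Ifit1, chr19:34640777-34640802, minus strand: tgagactgGAAAGTGAAActgaagcc
Gbp2, chr3:142620596-142620621, minus strand: aagacagtGAAAGTGAAActaaaaga
Irgm2, chr11:58214905-58214930, plus strand: caggaactGAAACTGAAAgctgttcg

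Among the transcription factors, Irf7 was higher in the leukemic samples and Irf9 and Stat2 were not called. IRF7 is the interferon regulatory factor that amplifies type I interferon production and is itself induced by interferon. Irf7 (chr7:141263183-141266424) was at 12, 42.4 and 30.4 FPKM in leukemic replicates 1 to 3 and at 6.14, 10.6, 5.2 and 7.82 FPKM in preleukemic replicates 1 to 4. The lowest leukemic value stood just above the highest preleukemic one. Its mean rose from 7.43 ± 2.35 (SD, n = 4) to 28.2 ± 15.3 FPKM (SD, n = 3), a log2 fold change of 1.67 (SE 0.41, limma adjusted p = 0.0376). Irf9 encodes the DNA-binding partner of STAT2. It was at 23.2, 41.4 and 43.3 FPKM in leukemic and at 27.1, 38.4, 32.4 and 31.7 FPKM in preleukemic samples. The groups overlapped, with leukemic replicate 1 the lowest of the 7, and the log2 fold change was 0.10 (SE 0.23, limma adjusted p = 0.768). Stat2 was between 12.8 and 17.1 FPKM in leukemic and between 17.1 and 22.0 FPKM in preleukemic samples, with a log2 fold change of -0.33 (limma adjusted p = 0.126).

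Of the 5 nucleic acid sensor and ligase genes, 1 was called. MDA5, encoded by Ifih1 (chr2:62595793-62646255), senses long double-stranded RNA in the cytoplasm. Ifih1 was at 2.38, 6.65 and 3.59 FPKM in leukemic and at 1.66, 1.06, 0.98 and 1.2 FPKM in preleukemic samples. The groups did not overlap, leukemic replicate 2 was the highest, and the log2 fold change was 1.15 (SE 0.29, limma adjusted p = 0.0397). Ifih1 reached the filter because of its leukemic values, and with no filter it was not called (limma adjusted p = 0.0534). Ddx58 encodes RIG-I, the sensor of short RNA ends, and ranged from 4.08 to 11.6 FPKM in leukemic and from 11.3 to 16.1 FPKM in preleukemic samples (log2 fold change -0.75, SE 0.31, limma adjusted p = 0.133). Dhx58, a regulator of both sensors, had a log2 fold change of 0.31 (limma adjusted p = 0.119). Trim25, the ubiquitin ligase of RIG-I, was the most highly expressed gene of this role, at 41.0, 40.1 and 49.9 FPKM in leukemic and 39.9, 49.5, 33.1 and 38 FPKM in preleukemic samples. The groups overlapped through preleukemic replicate 2, and the other 3 preleukemic samples were below each leukemic one. Zbp1, a sensor of nucleic acid in the Z form that can trigger cell death, was at 2.0, 11.6 and 3.78 FPKM in leukemic and between 6.07 and 15.0 FPKM in preleukemic samples, with leukemic replicates 1 and 3 below each preleukemic sample and replicate 2 within their range.

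Enzymatically active OAS proteins make 2′-5′ linked oligoadenylates, which activate the ribonuclease RNase L. The family is encoded on chromosome 5, and 4 of its 5 genes were tested. Oas3 (chr5:120753098-120777659) was at 2.69, 13.6 and 8.88 FPKM in leukemic and at 0.856, 2.82, 0.686 and 0.714 FPKM in preleukemic samples. Oas3 was called higher although preleukemic replicate 2 stood above leukemic replicate 1. Its log2 fold change was 1.93 (SE 0.51, limma adjusted p = 0.0447). Oas3 also reached the filter because of its leukemic values, and with no filter it was not called (limma adjusted p = 0.0675). Oas1a, the most highly expressed of the family, was at 8.95, 13.9 and 14.6 FPKM in leukemic and at 8.39, 9.99, 8.54 and 6.31 FPKM in preleukemic samples. Leukemic replicate 1 lay within the preleukemic range, and the log2 fold change of 0.52 (SE 0.20) was not called (limma adjusted p = 0.114). Oas2 and Oasl1 had log2 fold changes of 0.70 and 0.47 and were not called. Oasl2 was under 1 FPKM in 6 of the 7 samples and at 2.0 FPKM in leukemic replicate 2, and was not tested.

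Among genes whose products bind or act on RNA, Isg20 and Eif2ak2 were higher in the leukemic samples. ISG20 is an exonuclease that degrades single-stranded RNA. Isg20 (chr7:78913424-78920396) was at 36.7, 112 and 64.0 FPKM in leukemic and at 20.6, 8.05, 9.44 and 10.3 FPKM in preleukemic samples. The groups were apart, with preleukemic replicate 1 the highest of its group. The means were 71.1 ± 38.4 (SD, n = 3) and 12.1 ± 5.73 FPKM (SD, n = 4), a log2 fold change of 2.41 (SE 0.42, limma adjusted p = 0.0168). Eif2ak2 (chr17:78852550-78882572) encodes PKR, a kinase that halts translation on binding double-stranded RNA. It was at 25.8, 22.3 and 20.8 FPKM in leukemic and at 16.5, 15.6, 16.6 and 15.0 FPKM in preleukemic samples. Both groups were tight and did not overlap, and the order of the leukemic samples was not that of Isg20 or Rsad2. The log2 fold change was 0.50 (SE 0.09, limma adjusted p = 0.0191), the smallest of the 9. Of the 592 genes tested on chromosome 17, which also holds Eif2ak2, 199 (33.6%) were called higher, with a median log2 fold change of 0.35. The paper describes Eμ-Ret leukemia as hyperdiploid, with extra copies of this chromosome in every leukemia examined for gains. It also found gains in preleukemic cells, this chromosome among them, with more variety in the chromosomes involved. The paper gives no karyotype for the sequenced samples. The part of the chromosome in the Eif2ak2 value was not tested. Ifit1, which binds RNA lacking the self cap structure, was between 1.45 and 9.2 FPKM in leukemic and between 1.24 and 3.09 FPKM in preleukemic samples, and Adar, an RNA-editing enzyme, between 22.0 and 27.0 and between 22.5 and 25.9 FPKM. Neither was called. Ifit3, a partner of Ifit1, stayed between 0.507 and 1.25 FPKM over the 7 samples and was not tested.

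ISG15 is a ubiquitin-like protein that is attached to other proteins, and USP18 is the protease that removes it and a brake on the type I receptor. Isg15 (chr4:156199424-156200818) was at 23.1, 125 and 58.5 FPKM in leukemic and at 11.8, 12.2, 7.28 and 8.5 FPKM in preleukemic samples. The lowest leukemic sample stood well above the highest preleukemic one, while the leukemic samples were spread widely. The means were 68.8 ± 51.6 (SD, n = 3) and 9.95 ± 2.43 FPKM (SD, n = 4), a log2 fold change of 2.40 (SE 0.50, limma adjusted p = 0.025). Usp18 was between 8.62 and 18.6 FPKM in leukemic and between 8.03 and 10.3 FPKM in preleukemic samples, with a log2 fold change of 0.55 (SE 0.25, limma adjusted p = 0.163).

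Membrane restriction factors were represented by Ifitm3 and Bst2. IFITM3 blocks fusion of virus with the endosome. Ifitm3 (chr7:141009590-141010744) was at 35.1, 82.7 and 44.8 FPKM in leukemic and at 10.1, 7.97, 2.15 and 3.47 FPKM in preleukemic samples. The groups were far apart, and preleukemic replicates 1 and 2 were above replicates 3 and 4. Its mean was 54.2 ± 25.1 (SD, n = 3) against 5.92 ± 3.74 FPKM (SD, n = 4), a log2 fold change of 3.08 (SE 0.49, limma adjusted p = 0.0138), and it was called in 12 of 14 alternative analyses, more than any other of the 9. Bst2, which encodes tetherin, the factor that holds budding virus at the cell surface, was at 77.4, 59.7 and 51.1 FPKM in leukemic and at 41.9, 69.5, 42.4 and 37.3 FPKM in preleukemic samples. The groups overlapped through preleukemic replicate 2, and the log2 fold change was 0.41 (SE 0.23, limma adjusted p = 0.252).

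**Figure D2:**
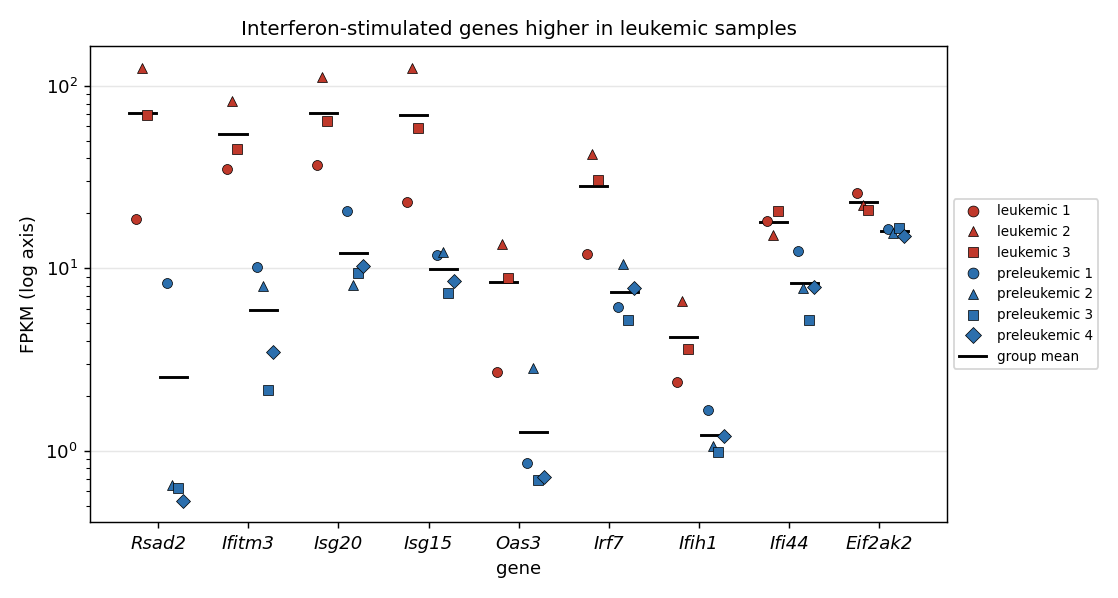
FPKM (vertical log axis) of the 9 genes called higher (horizontal axis) in each leukemic (red) and preleukemic (blue) sample, with bars at the group means. In 8 of the 9 genes the leukemic samples lie above each preleukemic sample, as they do in 14.9% of all genes tested. The 9 genes were selected by their call on these same samples, so the separation is no further support. Oas3 overlaps, with preleukemic replicate 2 at 2.82 FPKM and leukemic replicate 1 at 2.69 FPKM.

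Rsad2 and Cmpk2 are neighbours on chromosome 12, 12762 bases apart, and they differed from each other. RSAD2, or viperin, makes a chain-terminating nucleotide from the CTP that the kinase encoded by Cmpk2 helps to supply. Rsad2 (chr12:26442743-26456452) was at 18.6, 126 and 69.3 FPKM in leukemic and at 8.33, 0.65, 0.624 and 0.532 FPKM in preleukemic samples. Preleukemic replicate 1 stood far above the other preleukemic samples and below each leukemic one. The means were 71.3 ± 53.8 (SD, n = 3) and 2.53 ± 3.86 FPKM (SD, n = 4), and the log2 fold change of 4.49 (SE 0.83, limma adjusted p = 0.0181) was the largest of the 38. Cmpk2 (chr12:26469215-26479837) was at 5.55, 17.9 and 12.2 FPKM in leukemic and at 6.54, 9.08, 7.24 and 7.51 FPKM in preleukemic samples. Here the groups overlapped, preleukemic replicate 1 was the lowest of its group, and the log2 fold change was 0.46 (SE 0.33, limma adjusted p = 0.348). The log2 ratio of Rsad2 to Cmpk2 FPKM was 1.75, 2.82 and 2.51 in leukemic replicates 1 to 3 and 0.35, -3.80, -3.54 and -3.82 in preleukemic replicates 1 to 4. Leukemic samples and preleukemic replicate 1 thus had more Rsad2 than Cmpk2 per length, and the other 3 preleukemic samples less. Those 4 samples were also the ones with a red cell precursor marker sum of 1820 FPKM or more, against 192 to 221 FPKM in the others. Their neutrophil marker sums were the highest as well, at 883 to 1800 FPKM against 152 to 587 FPKM. In the leukemic group, Rsad2, the red cell precursor sum and the macrophage sum each ran from replicate 1 through replicate 3 to replicate 2. So did the BCP marker sum (3490, 5260 and 4300 FPKM in leukemic replicates 1 to 3) and the T and NK cell sum (10.5, 63.2 and 20.4 FPKM). The neutrophil, monocyte, mature B and plasma cell, endothelial and stromal, and plasmacytoid dendritic cell sums did not. The plasmacytoid dendritic cell sum followed Pacsin1, at 18.2, 0.29 and 3.16 FPKM in leukemic replicates 1 to 3. The other markers of that list, Siglech among them (0.119, 0.763 and 0.31 FPKM), ran in the order of Rsad2 at low levels. Whether cells other than BCP cells had a part in the Rsad2 values was not tested. Rtp4, a chaperone of receptors that limits interferon responses, was at 3.41, 24.7 and 9.3 FPKM in leukemic and between 10.1 and 17.8 FPKM in preleukemic samples and was not called.

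**Figure D3:**
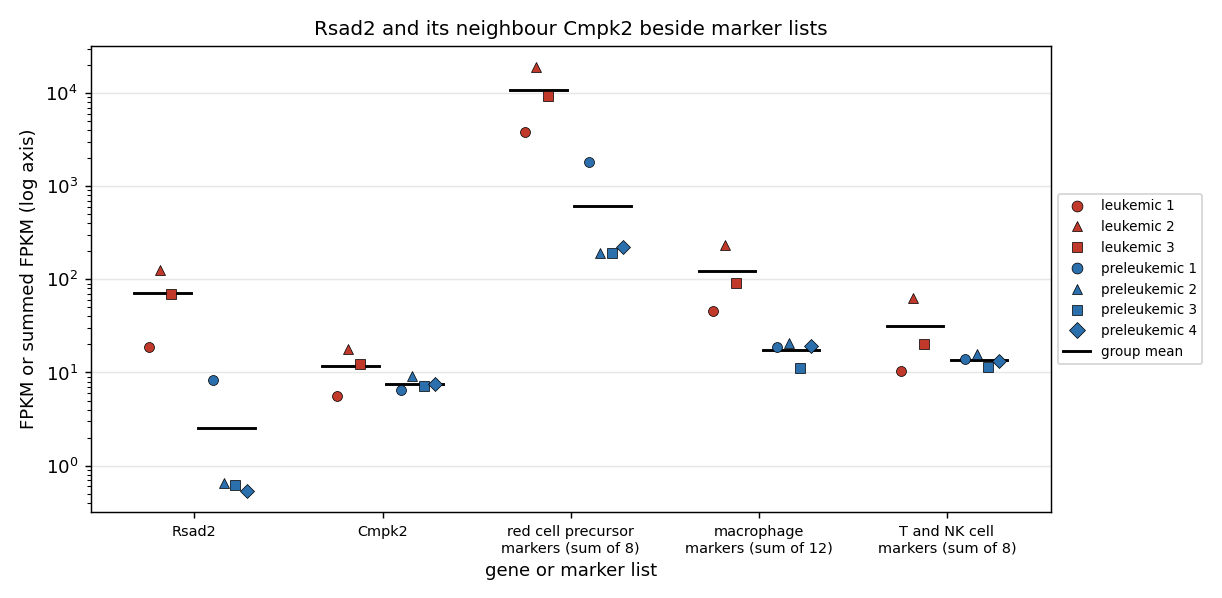
FPKM of Rsad2 and Cmpk2 and summed FPKM of the red cell precursor, macrophage and T and NK cell marker lists (vertical log axis) in each leukemic (red) and preleukemic (blue) sample, with bars at the group means. Preleukemic replicate 1 is the highest preleukemic sample for Rsad2 (8.33 FPKM) and for the red cell precursor markers (1820 FPKM), and Cmpk2 overlaps between the groups. Marker lists whose leukemic samples stood in another order, such as the neutrophil and monocyte lists, are not drawn.

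The interferon-inducible GTPases take part in defense against intracellular pathogens, and 0 of their 7 genes was called in either direction. Over all genes tested the share called was 14.7%, so 0 of 7 does not set this role apart. Gbp2 (chr3:142620663-142638008) was at 14.8, 54.6 and 10.1 FPKM in leukemic and at 28.0, 37.5, 35.1 and 40 FPKM in preleukemic samples. Gbp7 (chr3:142530336-142550151) was at 14.7, 79.0 and 10.5 FPKM in leukemic and at 44.3, 77.6, 50.7 and 55.1 FPKM in preleukemic samples. Iigp1, on chromosome 18, was at 1.91, 22.9 and 0.61 FPKM in leukemic and at 3.96, 9.35, 8.25 and 13.3 FPKM in preleukemic samples. For these 3 genes leukemic replicates 1 and 3 lay below each preleukemic sample, and leukemic replicate 2 lay above each. With all samples their log2 fold changes were -0.75, -1.22 and -0.91 (limma adjusted p = 0.322, 0.208 and 0.481). Without leukemic replicate 2 they were -1.44, -2.07 and -2.07 (limma adjusted p = 0.0107, 0.00683 and 0.031), and Zbp1 was then also called lower, at -1.45 (limma adjusted p = 0.0375).

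Irgm1, the most highly expressed GTPase gene, was at 41.0, 70.4 and 47.0 FPKM in leukemic and at 42.6, 55.5, 46.0 and 53.9 FPKM in preleukemic samples, and the groups overlapped. Igtp was between 23.4 and 57.3 FPKM in leukemic and between 16.0 and 25.2 FPKM in preleukemic samples. Irgm2 was at 8.46, 25.6 and 13 FPKM in leukemic and between 6.05 and 8.3 FPKM in preleukemic samples, without overlap, and the change of 0.95 on the log2 scale (SE 0.32) was not called (limma adjusted p = 0.0855). Gbp3 had a log2 fold change of -0.22 (limma adjusted p = 0.64). Leukemic replicate 2 was the highest leukemic sample for 7 of the 7 genes. Its T and NK cell marker sum was 63.2 FPKM, against 10.5 and 20.4 FPKM in leukemic replicates 1 and 3 and 11.4 to 15.8 FPKM in preleukemic samples, and 0 of the 6 markers tested was called. Gzma (32.1 FPKM) and Nkg7 (14.3 FPKM) made up most of that sum. Klrb1c was at 2.42 FPKM, below the 4.39 to 7.02 FPKM of preleukemic samples, and Cd3d at 2.05 FPKM was within their range. Ifng, made by T and NK cells, was listed at 0.129, 0.319 and 0.0612 FPKM in leukemic samples, at 0.0673 FPKM in preleukemic replicate 1 and at the floor of 0.01 in the other 3. These Ifng values rest on few fragments at this depth. The part of these cells in the GTPase values was not tested.

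**Figure D4:**
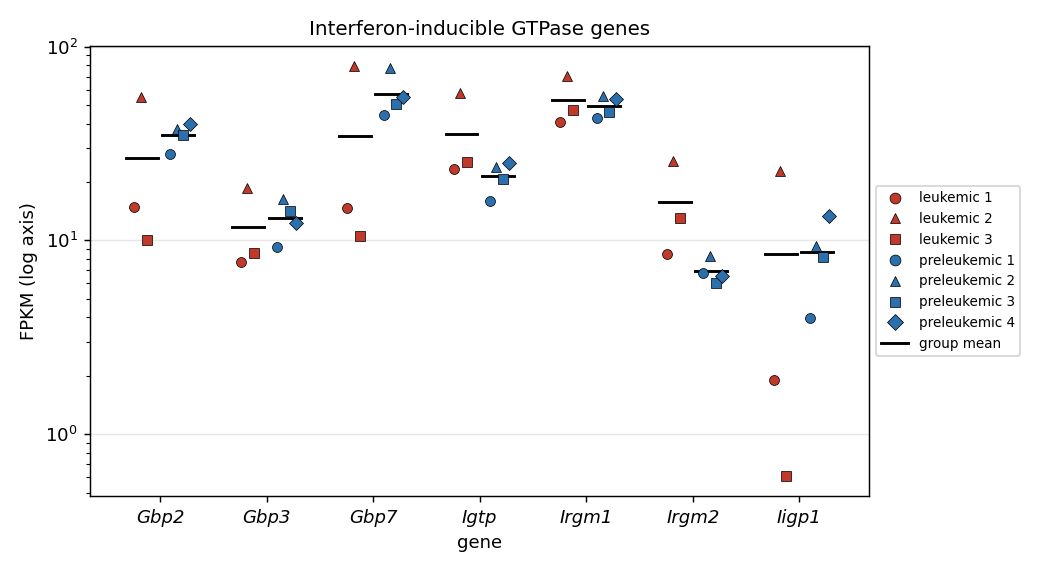
FPKM (vertical log axis) of the 7 interferon-inducible GTPase genes (horizontal axis) in each leukemic (red) and preleukemic (blue) sample, with bars at the group means. Leukemic replicate 2 (triangle) is the highest leukemic sample for each gene, while leukemic replicates 1 and 3 lie below the preleukemic samples for Gbp2, Gbp3, Gbp7 and Iigp1.

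The ADP-ribosylation and TRIM proteins regulate other signaling proteins. PARP9 and DTX3L form a complex that modifies ubiquitin and histones, and PARP14 acts on STAT signaling. Of the 4 genes 0 was called, against 14.7% of all genes tested. None had a log2 fold change above 0, against 47.9% of all genes tested, and the median was -0.10. Trim30a, a TRIM protein that restrains inflammatory signaling, was the most highly expressed of them, at 36.2, 46.0 and 48.8 FPKM in leukemic and at 52.0, 56.6, 50.9 and 52.2 FPKM in preleukemic samples. It was the only one of the 38 with each leukemic sample below each preleukemic one, and its log2 fold change was -0.28 (SE 0.11, limma adjusted p = 0.126). Parp9 and Dtx3l share a listed locus (chr16:35926515-35972621), so their values may not be separate.

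Of the remaining induced genes, Ifi44 was higher and Ifi27l2a was not called. Ifi44 (chr3:151730923-151749959), whose product has been linked to slower cell growth, was at 18.2, 15.3 and 20.5 FPKM in leukemic and at 12.4, 7.77, 5.23 and 7.85 FPKM in preleukemic samples. The groups did not overlap, and leukemic replicate 2 was here the lowest of its group. Its log2 fold change was 1.08 (SE 0.24, limma adjusted p = 0.0301). Ifi27l2a (chr12:103433873-103443680), whose listed locus overlaps that of Ifi27, was the most highly expressed of the 40, at 97.7, 247 and 133 FPKM in leukemic and at 41.6, 73.1, 79.0 and 85.3 FPKM in preleukemic samples. Each leukemic sample was above each preleukemic sample, but the log2 fold change of 1.12 (SE 0.36) was not called (limma adjusted p = 0.0741). Xaf1, linked to cell death, and Ifi35 had log2 fold changes of 0.06 and 0.24 and were not called.

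Across the 40 genes the samples held a recurring order. Leukemic replicate 2 was the highest leukemic sample for 29 genes (72.5%) and leukemic replicate 1 the lowest for 33 (82.5%), where over all genes tested these shares were 31.9% and 39.5%. Preleukemic replicate 2 was the highest preleukemic sample for 27 genes (67.5%, against 27.0% of all genes). Among the 9 called genes, however, preleukemic replicate 1 was the highest of its group for 5, namely Rsad2, Ifitm3, Isg20, Ifih1 and Ifi44. That sample had a red cell precursor marker sum of 1820 FPKM, against 192 to 221 FPKM in the other preleukemic samples. Its neutrophil marker sum was also the highest of its group, at 883 FPKM against 152 to 587 FPKM. For 7 of the 9 called genes (Irf7, Ifih1, Oas3, Isg20, Isg15, Ifitm3 and Rsad2) leukemic replicate 1 was the lowest and leukemic replicate 2 the highest of their group. That was also the order of the red cell precursor, macrophage, T and NK cell and BCP marker sums. It was not that of the neutrophil, monocyte, mature B and plasma cell, endothelial and stromal, or plasmacytoid dendritic cell sums. The part of cells other than BCP cells in the calls was not tested. The median deviation of the 38 genes from their mean over preleukemic samples, on the log2(FPKM + 1) scale, was -0.14, 0.58 and 0.36 in leukemic replicates 1 to 3 and -0.13, 0.19, -0.11 and -0.02 in preleukemic replicates 1 to 4. By this measure leukemic replicate 1 lay beside the lowest preleukemic sample, and leukemic replicates 2 and 3 lay above each preleukemic one. The spread between mice was wide. The median SD was 0.63 in leukemic and 0.24 in preleukemic samples, against 0.21 and 0.13 over all genes tested, and the leukemic SD was the larger for 34 of the 38 genes (89.5%), as it was for 73.8% of all genes. For 10 of the 38 genes each leukemic sample lay above each preleukemic one, against 14.9% of all genes tested, and for 1 below, against 17.1%.

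**Figure D5:**
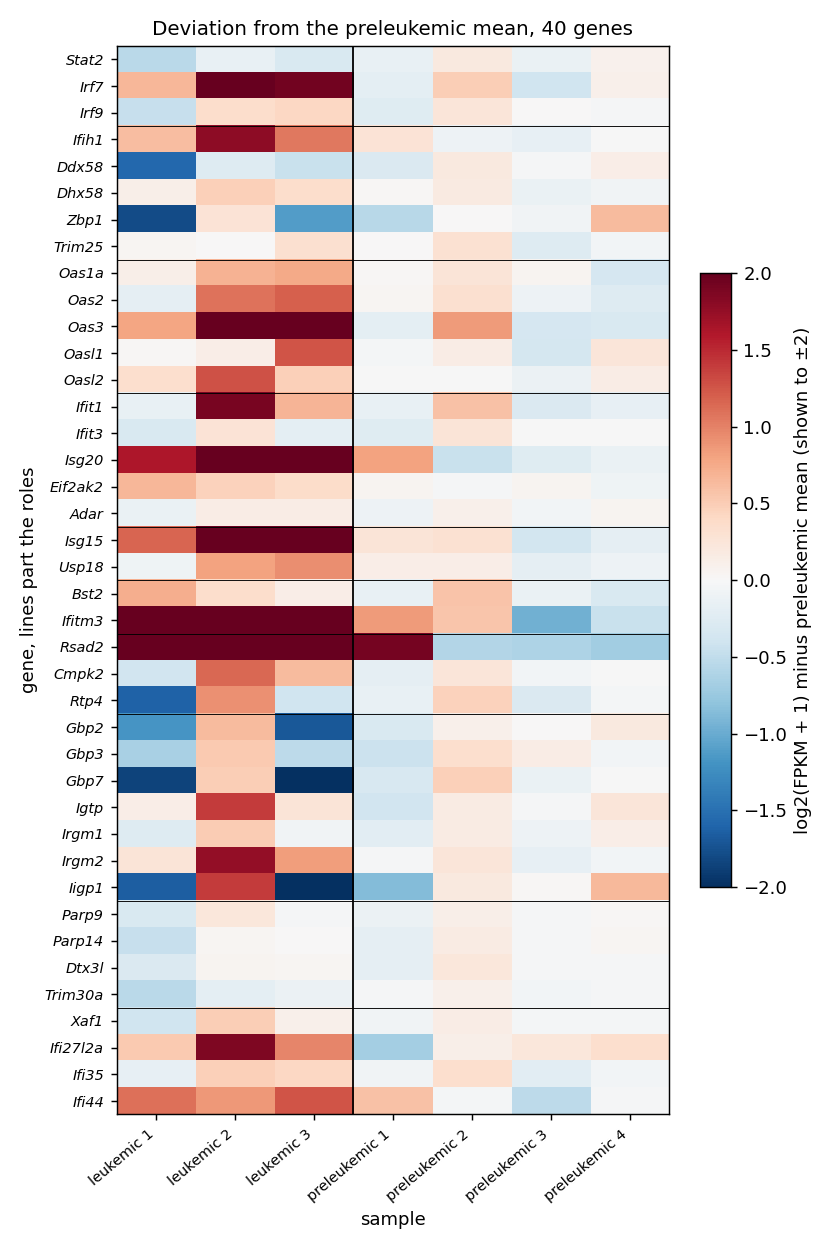
Log2(FPKM + 1) of the 40 interferon-stimulated genes (vertical axis, lines part the roles) in each sample (horizontal axis) minus the mean of the preleukemic samples, colored from -2 to 2. The 9 called genes are red in the leukemic samples, while leukemic replicate 1 is blue for many of the others and leukemic replicates 1 and 3 are blue for Gbp2, Gbp7, Iigp1 and Zbp1.

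The rest of the pathway was examined with 95 further genes. Of these, 66 were tested, 3 were higher and 3 were lower, so that 9.09% were called against 14.7% of all genes, and the median log2 fold change was -0.17. Of the 20 interferon ligand genes, 18 were at the floor of 0.01 FPKM in each of the 7 samples, Ifng and Ifnk reached at most 0.319 and 0.103 FPKM, and 0 was tested. Among 6 receptor genes, Ifnar2, a chain of the type I receptor, was at 22.8, 29.7 and 26.6 FPKM in leukemic and between 13.9 and 19.3 FPKM in preleukemic samples (log2 fold change 0.68, SE 0.14, limma adjusted p = 0.0222). Ifngr2, the type II receptor chain encoded 141506 bases away, was at 34.7, 41.0 and 50.2 FPKM against 52.8 to 66.1 FPKM (log2 fold change -0.51, SE 0.14, limma adjusted p = 0.0465). Ifnar2 and Ifngr2 thus moved in opposite directions. Il10rb and Ifnar1, the other type I receptor chain, lie between them and were not called. Their log2 fold changes were 0.17 and -0.06 (limma adjusted p = 0.313 and 0.705). Of the 5 kinases and STATs 0 was called, with Jak1 the most highly expressed (log2 fold change -0.31, limma adjusted p = 0.0912).

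Of the 6 negative regulators 0 was called, with Ptpn6 the most highly expressed (log2 fold change -0.14, limma adjusted p = 0.412). Among the 6 other IRF genes tested, Irf5 was lower, at 43.9 to 47.7 FPKM in leukemic and 59.5 to 64.8 FPKM in preleukemic samples (log2 fold change -0.40, SE 0.07, limma adjusted p = 0.0171), and Irf8, the most highly expressed, was not called. Among the 8 sensors and adaptors tested, Tlr7, the endosomal receptor of single-stranded RNA, was at 12.5, 1.91 and 4.09 FPKM in leukemic and at 0.231 to 0.515 FPKM in preleukemic samples. The difference was 2.08 on the log2 scale (SE 0.48, limma adjusted p = 0.0315), but Tlr7 reached the filter because of its leukemic values. Its highest sample was leukemic replicate 1, the lowest leukemic sample for 33 of the 40 interferon-stimulated genes. Tmem173, which encodes STING, was the most highly expressed of that list and was not called (log2 fold change 0.51, limma adjusted p = 0.078). Of 35 other interferon-induced genes tested, Ifitm1, a relative of Ifitm3, was higher, at 4.77, 5.02 and 6.01 FPKM in leukemic and between 0.01 and 1.11 FPKM in preleukemic samples (log2 fold change 2.08, SE 0.28, limma adjusted p = 0.01). Ifitm1, like Tlr7, reached the filter because of its leukemic values. Lgals9, which encodes galectin-9, was lower (log2 fold change -0.33, SE 0.08, limma adjusted p = 0.038), and Ly6e, the most highly expressed of the list, was not called.

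Among the genes of families with near-identical copies, such as the Gbp, Irgm, Ifit, Oas and Ifitm genes, reads may have been shared between copies, and these values are uncertain to that extent.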

How the data were processed

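RNA-seq was performed on sorted splenic BCP cells of 3 leukemic and 4 preleukemic Eμ-Ret mice. The authors deposited 1 FPKM value per gene and sample, with no value below 0.01. The submitters' processing notes list STAR 2.5.0b, bedtools 2.17.0, Cufflinks 2.2.1, Bowtie, DESeq2 and mm10, without their roles, and whether strand was used in counting is not given in the sources used here. The authors tested counts with DESeq2. As FPKM is not a count, log2(FPKM + 1) was tested with limma 3.58.1 in R 4.3.3 (lmFit, eBayes with an intensity trend) for genes whose FPKM summed to 10 or more, and p-values were adjusted by the method of Benjamini and Hochberg at 0.05. For genes with low values this scale understates a fold change. The 40 genes, their roles, the 95 pathway genes and the marker lists were chosen with earlier results of these data known. Values are given in each sample for genes that were called and for the most highly expressed gene of each role, and pathway genes were named where called or the most highly expressed of their list. Ifng, Ifnk, Il10rb and Ifnar1 were named besides.

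One pathway gene is not reported here. Depth was read from the steps of low values of genes with a transcript over 1500 bases, and 75.9% to 80.8% of these values came within 0.1 of a whole number of fragments. The counting errors given cover no other source of error. Any pair of samples had at most 1 equal value above the floor. In simulated data of the leukemic against preleukemic comparison (10541 genes, 200 changed), 151 genes changed by a log2 of 1 were recovered with 9 false calls, 180 changed by a log2 of 2 with 5, and 0 calls were made with none changed. Each simulated gene had the same SD in both groups and values drawn independently. In the data the leukemic SD was the larger for 73.8% of all genes tested, so these rates may not hold for the calls made here. Listed starts, which count from 0, were printed counting from 1. Same-numbered samples did not deviate together (correlations 0.03, 0.05 and -0.09). The 14 alternatives covered the pseudocount, filter, scaling, trend, replicate block and each sample left out. Figures were drawn with matplotlib 3.10.9.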

Additional observations from a re-analysis of the deposited data

Results flagged for a closer look

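In 3 of the 40 interferon-stimulated genes (7.5%), 1 preleukemic sample lay apart from the other 3 by a gap of 0.84 to 0.96 of its group's range, above Dixon's critical value. Chance flags about 1 in 20 groups, and the same held for 6.62% of all genes tested. Rsad2 was at 8.33 FPKM in preleukemic replicate 1, which also had the highest red cell precursor and neutrophil marker sums of its group. Without that sample Rsad2 was still called higher. It was not called without preleukemic replicate 2, 3 or 4 (limma adjusted p = 0.0565, 0.0577 and 0.0665), and it was called in 10 of the 14 alternatives. Preleukemic replicate 2 was at 2.82 FPKM for Oas3 and at 3.09 FPKM for Ifit1, and it was the highest preleukemic sample for 27 of the 40 genes.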

How the results depend on the processing

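Of the 522 single-gene comparisons with an alternative, 443 kept direction and side of the threshold, 50 lost a call, 12 gained one and 17 changed sign. Interferon-stimulated genes called higher numbered 9 in the main analysis and 6 to 9 under another pseudocount, filter, scaling or trend, and those called lower 0, or 2 after rescaling to a common sum. An FPKM sum of at least 70 left 548 genes of the table called higher and 403 lower, and the common sum called 2231 lower. With the replicate number as a block, which does not pair these mice, 0 genes were called higher and 0 lower, and 0 interferon-stimulated genes. That fit estimates more terms from the same 7 samples. Under the common sum the log2 fold change became -0.10 for Adar, -0.06 for Irf9, -0.10 for Irgm1, -0.03 for Trim25 and -0.09 for Xaf1. The cause was not tested.

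Leaving out 1 sample gave 107 to 870 genes called higher and 42 to 750 lower, and 0 to 14 and 0 to 4 interferon-stimulated genes. The log2 fold change then ran from -0.12 to 0.05 for Dtx3l, from -0.59 to 0.00 for Gbp3, from -0.05 to 0.39 for Irf9, from -0.16 to 0.22 for Irgm1, from -0.22 to 0.03 for Parp14, from -0.16 to 0.10 for Parp9, from -1.01 to 0.26 for Rtp4 and from -0.15 to 0.29 for Xaf1. The median over the genes tested was 0.18 to 0.43 over the 14 alternatives. With 3 leukemic mice, genes near 1 FPKM, such as Oasl2 and Ifit3, are limited by counting error.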
